A study of Mus musculus with 3 samples.

Results

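The genes described here are 9 integrin subunits in tumor-infiltrating lymphocytes, *Itgae*, *Itga4*, *Itgal*, *Itgax*, *Itgav*, *Itgb1*, *Itgb2*, *Itgb7* and *Itgb8*. They were chosen by gene symbol from 26 integrin subunit genes among the 32285 genes of the tables. *Itga1*, *Itga2* and *Itgam*, the subunits used to follow natural killer (NK) cell state in this study, are not among these 9. *Itga1* and *Itgam* served to divide NK cells, and all 3 appear below only within a list of other integrin genes.

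The cells were TILs sorted from subcutaneous tumors of MC38-Ova, a mouse colon adenocarcinoma line carrying ovalbumin, grown in wild-type C57BL/6 Kaede mice that, by their labels, received an isotype control. Host cells of these mice carry the Kaede transgene, whose green fluorescence is turned to red for good by violet light. Tumors were lit at day 13 and harvested at day 15, which separates cells by their time in the tumor. Kaede-green (KG+) cells had entered within 48 h and gave 2 libraries, Kaede-green 1 and 2. Kaede-red (KR+) cells had been there for at least 48 h and gave 1 library. Each mouse had received 250000 tumor cells, and the sort took live CD45+ TER119- Kaede+ cells without CD11b+ NK1.1- myeloid cells. The sources used here do not state how many animals were pooled in a library or their exact age in this experiment. The p-values thus measure how differences between classes varied from library to library, and the libraries include both Kaede colors.

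Integrins are paired surface receptors, each built from an α and a β chain, that bind adhesion molecules on other cells or proteins of the matrix. The α chains *Itga4* and *Itgae* (CD103) can both pair with *Itgb7*. They give α4β7, which binds MAdCAM-1 on gut vessels, and αEβ7, which binds E-cadherin. *Itga4* with *Itgb1* forms VLA-4, which binds VCAM-1 and fibronectin. *Itgal* pairs with *Itgb2* to form LFA-1, a receptor for ICAM-1, and *Itgax*, the CD11c chain, also pairs with *Itgb2*. *Itgav* with *Itgb8* forms αvβ8, which activates latent TGF-β, the form that *Lrrc32* (GARP) holds on regulatory T cells.

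Cells were classed by raw unique molecular identifiers (UMIs), each counting 1 captured mRNA molecule. NK cells had at least 1 UMI of *Ncr1* and at most 1 of *Cd3e*, and those with at least 2 of *Rora* and 0 of *Eomes* were set apart as ILC-like, named after innate lymphoid cells. CD8 T cells had at least 2 UMIs of *Cd3e* and 1 each of *Cd8a* and *Cd8b1*, and regulatory T cells (Tregs) at least 2 of *Cd3e* and 1 of *Foxp3*. γδ T cells had at least 1 UMI each of *Cd3e* and *Cd163l1*, a scavenger receptor of one γδ subset. This gave 7829 NK, 492 ILC-like, 9179 CD8 T, 1663 Treg and 591 γδ T cells among 30803 cells used. The 30803 also include 511 cells that met the limits of more than 1 class, which were left out of the classes, and cells that met none. Levels are given as CPM, the UMIs of a gene in a class divided by all UMIs of that class and scaled to 1000000. Marker lists were summed to check the labels. Treg markers, none of them used in the limits, were between 6288 and 7604 CPM in Tregs against at most 1331 in CD8 T cells. Summed γδ T markers were between 3577 and 5429 CPM in γδ T cells and at most 27.5 in Tregs and CD8 T cells. NK cells had 77.5 to 167 CPM of that list. The CD8 T list, which includes general T cell genes, was at 4195 to 5067 CPM in CD8 T cells, 2541 to 3156 in Tregs and 1941 to 2333 in γδ T cells. It also includes *Cd8a* and *Cd8b1*, which define the class, so the higher sum in CD8 T cells was partly set by the limits. ILC-like cells had more of their own marker list than NK cells (665 to 799 against 143 to 192 CPM), but CD8 T cells (583 to 707) and Tregs (430 to 694) were about as high and γδ T cells higher (2117 to 2789), so the list sets ILC-like cells apart from NK cells and not from T cells.

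Each level below is for the cells of a class in 1 library, given in the order Kaede-green 1, Kaede-green 2, Kaede-red unless stated. The counts come from the 3′ ends of transcripts, so levels are compared between cells and not between genes. The libraries held 10498 to 12327 barcodes and 87193225 to 175848894 UMIs, with Kaede-red the deepest, and shared 20 to 36 cell barcodes in pairs. Class sums ran from 823321 UMIs (ILC-like, Kaede-green 1) to 66796641 UMIs (CD8 T, Kaede-red), which sets how finely a low gene can be read.

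Promoter sequences are shown for *Itgb7*, *Itgb8* and *Itgax*, the members with the widest spread between classes for which a sequence was at hand. Of the 9 members, 6 had a RefSeq promoter on GRCm38.p6, covering 250 bases before to 50 after the annotated start, and each is written 5′ to 3′ on the strand of the gene. Capitals mark matches, on either strand, to the letters TGTGGT (RUNX core), GGAAGT (an ETS core) or TGTTTAC (forkhead).
Itgb7 chr15:102231886-102232185 (minus strand): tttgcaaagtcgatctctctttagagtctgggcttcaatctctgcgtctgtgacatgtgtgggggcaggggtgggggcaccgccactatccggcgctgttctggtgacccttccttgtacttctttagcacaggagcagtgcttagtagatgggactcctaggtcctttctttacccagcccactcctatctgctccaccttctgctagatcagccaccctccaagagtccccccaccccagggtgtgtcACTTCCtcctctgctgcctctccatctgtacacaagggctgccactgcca
Itgb8 chr12:119238227-119238526 (minus strand): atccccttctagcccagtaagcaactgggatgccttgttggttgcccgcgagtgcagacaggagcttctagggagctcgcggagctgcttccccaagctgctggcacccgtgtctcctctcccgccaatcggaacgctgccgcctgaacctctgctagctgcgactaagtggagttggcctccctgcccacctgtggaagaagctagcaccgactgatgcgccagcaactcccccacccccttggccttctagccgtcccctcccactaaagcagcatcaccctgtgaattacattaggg
Itgax chr7:128129300-128129599 (plus strand): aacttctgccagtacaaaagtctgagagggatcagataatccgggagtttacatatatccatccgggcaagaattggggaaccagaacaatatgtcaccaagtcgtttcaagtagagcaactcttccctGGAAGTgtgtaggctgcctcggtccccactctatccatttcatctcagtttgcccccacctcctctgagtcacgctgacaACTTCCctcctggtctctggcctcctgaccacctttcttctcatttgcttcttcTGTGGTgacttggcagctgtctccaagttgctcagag
The *Itgb7* window holds 1 ETS match at the start itself. The *Itgax* window holds 2 ETS matches and 1 RUNX match 13 bases after the start, and the *Itgb8* window holds none of these letters. That *Itgb8* window follows the RefSeq start and lies inside the gene as GENCODE places it (chr12:119158022-119238802), whose start is further upstream and was not searched. Over all 32851 promoters of 300 bases, 16.8% hold the RUNX letters, 23.8% the ETS letters and 3.65% the forkhead letters, so these matches describe the windows and locate no site. The windows of *Itgav* (2 ETS matches) and *Itga4* (1 RUNX match) also held a match, and that of *Itgb1* did not. *Itgax* (chr7:128129547-128150657) lies 11.1 kb from *Itgam* on the same strand, and no member overlaps another gene of the tables on its own strand.

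The clearest contrasts between classes lay in the β7 and β8 systems. *Itgb8*, the β chain of αvβ8, was highest in Tregs among the 5 classes, with 52.2, 58.5 and 80.1 CPM. In CD8 T cells it had 0.385, 0.997 and 0.404 CPM, in NK cells 0.439, 0.534 and 0.103 CPM, and in γδ T cells 0, 2.09 and 0.498 CPM. Every Treg library stood above every library of the other classes, and B cells (154, 75 and 5 cells), taken as a class that should lack several of these genes, had no *Itgb8* UMI. All cells used held 353, 785 and 792 *Itgb8* UMIs, of which Tregs held 226, 509 and 523. Most of the others lay in cells outside the 5 classes, so the gene was not confined to the cells classed as Tregs. The cells outside include 66, 173 and 115 that met the limits of both CD8 T cells and Tregs. The *Itgb8* UMIs in those cells were not counted apart. ILC-like cells had 3, 1 and 2 UMIs of *Itgb8* in all, so their level of 3.64, 0.52 and 0.47 CPM rests on single molecules. Against CD8 T cells the Treg difference was 6.67 ± 0.40 on the log2 scale (± SE, 102-fold, adjusted p = 7.42e-08), and 4.82 (adjusted p = 8.50e-07) when cells meeting the limits of more than 1 class were kept. Over 11 alternatives the adjusted p ranged from 3.96e-34 to 7.07e-05. Here and below, adjusted p is from edgeR's quasi-likelihood test on the class sums with the library as a block, after Benjamini-Hochberg adjustment over all genes tested. After each cell was thinned to 2000 UMIs, *Itgb8* was detected in 13.1%, 13.5% and 14.7% of Tregs (exact 95% interval 9.73 to 17.0% for the smallest group), and before thinning in 34.4%, 39.2% and 39.2%.

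*Itgav*, the α chain that pairs with β8, was broad. It had 49.5, 66.5 and 60.7 CPM in NK cells, 59.8, 85.1 and 88.8 in CD8 T cells and 55.9, 53.2 and 61.8 in γδ T cells. Tregs again stood apart, with 211, 221 and 253 CPM, a 2.72-fold higher level than in CD8 T cells (log2 difference 1.44 ± 0.15, adjusted p = 9.95e-06). Among the other 4 classes the ranges of neighbors in the order of levels overlapped. In thinned Tregs, *Itgb8* was detected in 22.1%, 14.1% and 20.9% of *Itgav*-positive cells and in 7.69%, 13.2% and 10.7% of *Itgav*-negative cells. The share was thus the higher in *Itgav*-positive cells in each library, by little in Kaede-green 2. *Lrrc32*, which presents the latent TGF-β substrate of αvβ8, showed the same class pattern, with 64.3, 58.8 and 70.8 CPM in Tregs and at most 2.09 CPM in the other classes.

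*Itgae*, the CD103 chain, followed a graded order. It was highest in γδ T cells (96.1, 98.1 and 117 CPM), next in Tregs (70.3, 62.4 and 94.2) and lower in CD8 T cells (12.8, 11.3 and 4.84), and no library of one of these classes reached into the next. NK cells had 1.26, 1.27 and 2.05 CPM and ILC-like cells 0, 2.08 and 2.35 CPM, which overlap. In thinned cells it was detected in 0.203%, 0.205% and 0.548% of NK cells, and B cells gave 0%, 1.33% and 0% at a median depth of 4063 to 4975 UMIs against 6040 to 17516 in NK cells. The B cells are too few to set a background, above all the 5 of Kaede-red, and the NK share is not read as expression. With 0 of 88 ILC-like cells positive in Kaede-green 1, a share of up to 4.11% (exact 95% interval) remained possible there. The CD8 T level was 5.67-fold that of NK cells (log2 difference 2.50 ± 0.36, adjusted p = 0.00013). Over the same CD8 T sums, Tregs were 7.24-fold (2.86 ± 0.32, adjusted p = 1.64e-05) and γδ T cells 10.3-fold higher (3.36 ± 0.34, adjusted p = 8.21e-06). The CD8 T difference from NK cells was 3.23 (adjusted p = 1.45e-08, range over the alternatives 2.43e-12 to 0.0227) without Kaede-red, and the γδ T difference was 2.60 (adjusted p = 6.91e-05, range 4.08e-17 to 0.00131) with cells meeting the limits of more than 1 class kept.

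*Itgb7*, the shared partner of αE and α4, was highest in γδ T cells and Tregs, the classes with the most *Itgae*, and lowest in CD8 T cells. γδ T cells had 454, 386 and 419 CPM and Tregs 368, 297 and 371 CPM, ahead of ILC-like cells (199, 170 and 150), NK cells (163, 144 and 88.2) and CD8 T cells (100, 80.9 and 38.6). The γδ T, Treg and ILC-like ranges did not overlap, whereas those of ILC-like and NK cells, and of NK and CD8 T cells, did. Within each library the levels of all classes stood in this order. The level was 4.57-fold higher in Tregs than in CD8 T cells (2.19 ± 0.22, adjusted p = 6.25e-06) and 5.69-fold higher in γδ T than in CD8 T cells (2.51 ± 0.23, adjusted p = 2.70e-06). In thinned cells *Itgb7* was detected in 62.2%, 55.4% and 59.6% of γδ T cells, in 51.1%, 45.8% and 53.0% of Tregs, in 28.4%, 24.8% and 26.3% of ILC-like cells, in 29.1%, 26.2% and 19.4% of NK cells and in 19.5%, 15.5% and 7.87% of CD8 T cells. In these shares ILC-like and NK cells thus had no common order. Among thinned CD8 T cells, *Itgb7* was found in 42.4%, 32.6% and 25.4% of those with *Itgae* and in 18.8%, 15.0% and 7.61% of those without. These shares rest on 59, 86 and 59 *Itgae*-positive cells, and all 3 libraries had the higher share in *Itgae*-positive cells. In Tregs the same shares were 61.0%, 57.0% and 59.1% against 49.8%, 44.2% and 51.6%. γδ T cells had no common direction, with 76.5%, 50% and 58.9% against 59.3%, 56.0% and 59.8%.

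**Figure D1:**
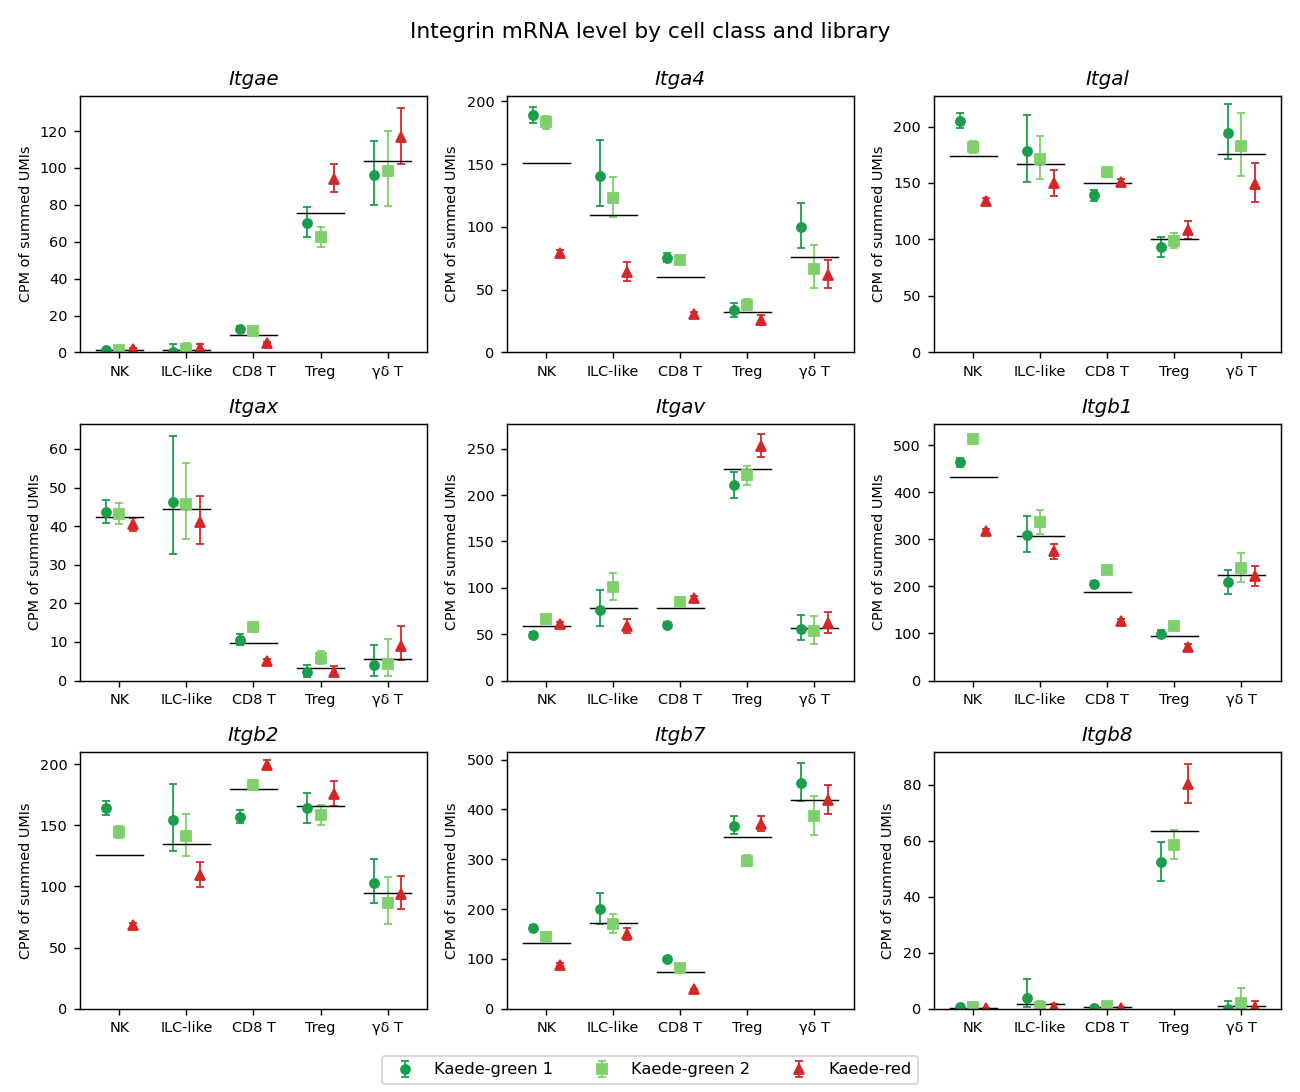
Level of the 9 integrin genes (vertical axis, CPM of summed UMIs, from 0) in NK, ILC-like, CD8 T, Treg and γδ T cells. Each point is 1 library with its exact 95% counting interval and the black line is the mean of the 3 libraries. *Itgb8* and *Itgav* stand out in Tregs, *Itgae* and *Itgb7* in γδ T cells and Tregs, and *Itgax* in NK and ILC-like cells.

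The comparison of CD8 T with NK cells asks which integrins separate the main cytotoxic lymphocytes of the tumor. Of the 9 members, 4 were lower and 1 (*Itgae*) was higher in CD8 T cells, against 25.8% of all 11542 genes tested that were called in either direction. *Itgax*, the CD11c α chain, had 43.7, 43.2 and 40.5 CPM in NK cells and 10.6, 13.8 and 5.11 CPM in CD8 T cells, a 4.72-fold lower level (log2 difference -2.24 ± 0.27, adjusted p = 2.81e-05). *Itga4* had 189, 183 and 79.2 CPM in NK cells and 75.3, 73.7 and 30.6 CPM in CD8 T cells (-1.37 ± 0.16, adjusted p = 2.40e-05). For both genes every NK library lay above every CD8 T library.

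*Itgb1*, the β chain of VLA-4 and of the collagen and laminin receptors, had 464, 513 and 318 CPM in NK cells and 206, 234 and 127 CPM in CD8 T cells (-1.24 ± 0.13, adjusted p = 1.11e-05), with no overlap. *Itgb7* was lower by less (-0.91 ± 0.21, adjusted p = 0.0056), its NK and CD8 T ranges overlapped, and the call was lost without Kaede-green 2 (adjusted p = 0.0695, range over 11 alternatives 5.39e-06 to 0.0695). *Itgav* (0.36 ± 0.15, adjusted p = 0.0992), *Itgal* (-0.23 ± 0.12, adjusted p = 0.183), *Itgb2* (0.54 ± 0.20, adjusted p = 0.0693) and *Itgb8* (0.94 ± 0.54, adjusted p = 0.243) did not pass. Without the Kaede-red library *Itgal* and *Itgav* did pass, at adjusted p = 0.00611 and 0.0288, where 4599 of all 11700 genes tested were called. *Itgav* also passed with stricter class limits (adjusted p = 0.0381) and with only the compared classes fitted (adjusted p = 0.0271). Over the alternatives the adjusted p ranged from 0.00611 to 0.776 for *Itgal* and from 0.0271 to 0.312 for *Itgav*. *Itgb2* passed under 4 alternatives (range 0.00682 to 0.26) and *Itgb8* under 1 (range 0.00175 to 0.511).

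*Itgax* is also a gene of dendritic cells and macrophages, and the sum of 7 myeloid markers was taken beside it. That sum was 65.2, 184 and 13.0 CPM in NK cells, and its part in the *Itgax* level was not tested. In thinned cells *Itgax* was detected in 7.05%, 8.72% and 8.91% of NK cells, 9.09%, 6.54% and 8.37% of ILC-like cells and 2.04%, 3.12% and 1.17% of CD8 T cells, with 0.649%, 2.67% and 0% in B cells. Tregs had 0%, 0.466% and 0%. Shares in NK and ILC-like cells were above those in CD8 T cells in each library. The B cells are few, with an exact 95% interval of 0.325 to 9.30% in Kaede-green 2, and their myeloid sum of 6157, 5132 and 1928 CPM came almost wholly from *H2-Aa* (6152, 5098 and 1928 CPM), a gene B cells also express.

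No member separated ILC-like from NK cells at the threshold of the test. By edgeR 0 of 9 passed, against 2.7% of all genes tested, and 2 (*Itgb1* and *Itga4*) had an unadjusted p under 0.05. DESeq2 called 1 (*Itgb1*), beside 462 of all 11542 genes tested. *Itgb8* (3, 1 and 2 UMIs in ILC-like cells) and *Itgae* (0, 4 and 10 UMIs) had too few counts there for the test to decide. With only these 2 classes fitted, *Itgb8* did not pass the filter on low counts. *Itgb1* had 310, 336 and 275 CPM in ILC-like cells (log2 difference -0.51 ± 0.14 from NK cells, adjusted p = 0.0701) and *Itga4* 141, 123 and 64.0 CPM (-0.49 ± 0.17, adjusted p = 0.206). *Itgax* had 46.2, 45.8 and 41.2 CPM, a range that overlaps that of NK cells (0.00 ± 0.29, adjusted p = 1). Without the Kaede-red library 3 members passed, *Itgb1* (-0.63, adjusted p = 0.000605), *Itga4* (-0.53, adjusted p = 0.0331) and *Itgav* (0.60, adjusted p = 0.0299). In that fit 504 of all 11700 genes tested were called. Over the 11 alternatives the adjusted p ranged from 0.000605 to 0.698 for *Itgb1*, from 0.00547 to 0.813 for *Itga4* and from 0.0299 to 1 for *Itgav*.

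Tregs differed from CD8 T cells in 8 of the 9 members, 4 higher and 4 lower, where 25.8% of all genes tested were called. The 4 higher members are the β7 and β8 genes above with their α partners *Itgae* and *Itgav*. The lower ones were *Itgb1* (98.5, 115 and 70.8 CPM in Tregs, -1.10 ± 0.14, adjusted p = 4.01e-05), *Itga4* (33.5, 37.9 and 25.7 CPM, -0.91 ± 0.17, adjusted p = 0.00125), *Itgal* (92.9, 98.8 and 108 CPM, -0.70 ± 0.12, adjusted p = 0.000715) and *Itgax* (2.08, 5.74 and 2.30 CPM, -1.53 ± 0.35, adjusted p = 0.00496). Both chains of VLA-4 were therefore lower in Tregs. The Treg and CD8 T libraries did not overlap for *Itgb1* and *Itgal*, and did for *Itga4* and *Itgax*. Within each library the Treg level was the lower for all 4. That of *Itgax* rests on 9, 50 and 15 UMIs.

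Of these lower calls, 3 were lost when a single library was left out. *Itga4* (adjusted p = 0.0615) and *Itgax* (adjusted p = 0.0926) lost theirs without Kaede-green 1, and *Itgal* (adjusted p = 0.053) without Kaede-green 2. Over the alternatives the adjusted p ranged from 1.14e-06 to 0.0767, from 2.15e-06 to 0.0926 and from 3.87e-06 to 0.053 in the same order. Where the calls were lost the log2 differences kept their sign, at -0.74, -1.25 and -0.66. The genes called among all tested also fell, from 2978 to 1739 and 1440 without Kaede-green 1 and 2. *Itgb2* had 164, 158 and 176 CPM in Tregs and 157, 183 and 200 CPM in CD8 T cells, and did not pass (-0.24 ± 0.20, adjusted p = 0.443).

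γδ T cells differed from CD8 T cells in 4 of the 9 members, 2 higher and 2 lower, with 29.8% of all genes tested called. The higher ones were *Itgae* and *Itgb7*, both chains of αEβ7. *Itgb2* was lower, at 103, 86.7 and 94.1 CPM (-1.01 ± 0.22, adjusted p = 0.00401), with every γδ T library below every CD8 T library. That call was lost without Kaede-green 2 (adjusted p = 0.0679, range 7.96e-07 to 0.0679). *Itgal*, the usual partner of *Itgb2*, had 195, 183 and 149 CPM and did not pass (0.14 ± 0.13, adjusted p = 0.449). *Itgav* was called lower (-0.51 ± 0.17, adjusted p = 0.0398), and lost this without any one of Kaede-green 1, Kaede-green 2 or Kaede-red (adjusted p = 0.0822, 0.216 and 0.0511, range over the alternatives 0.00464 to 0.216). *Itga4* (100, 66.8 and 61.8 CPM, adjusted p = 0.134), *Itgb1* (209, 239 and 222 CPM, adjusted p = 0.278), *Itgax* (3.94, 4.18 and 8.97 CPM, adjusted p = 0.358) and *Itgb8* (adjusted p = 0.92) did not pass. For *Itgb8*, with 0, 2 and 1 UMIs in γδ T cells, the test cannot decide. With only these 2 classes fitted it did not pass the filter on low counts. *Itgax* passed without Kaede-red (-1.66, adjusted p = 0.0223, range 0.0223 to 0.839), but it had only 5, 4 and 18 UMIs in γδ T cells. The comparisons of Tregs and of γδ T cells share the CD8 T sums, and so do those of CD8 T and ILC-like cells the NK sums.

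**Figure D2:**
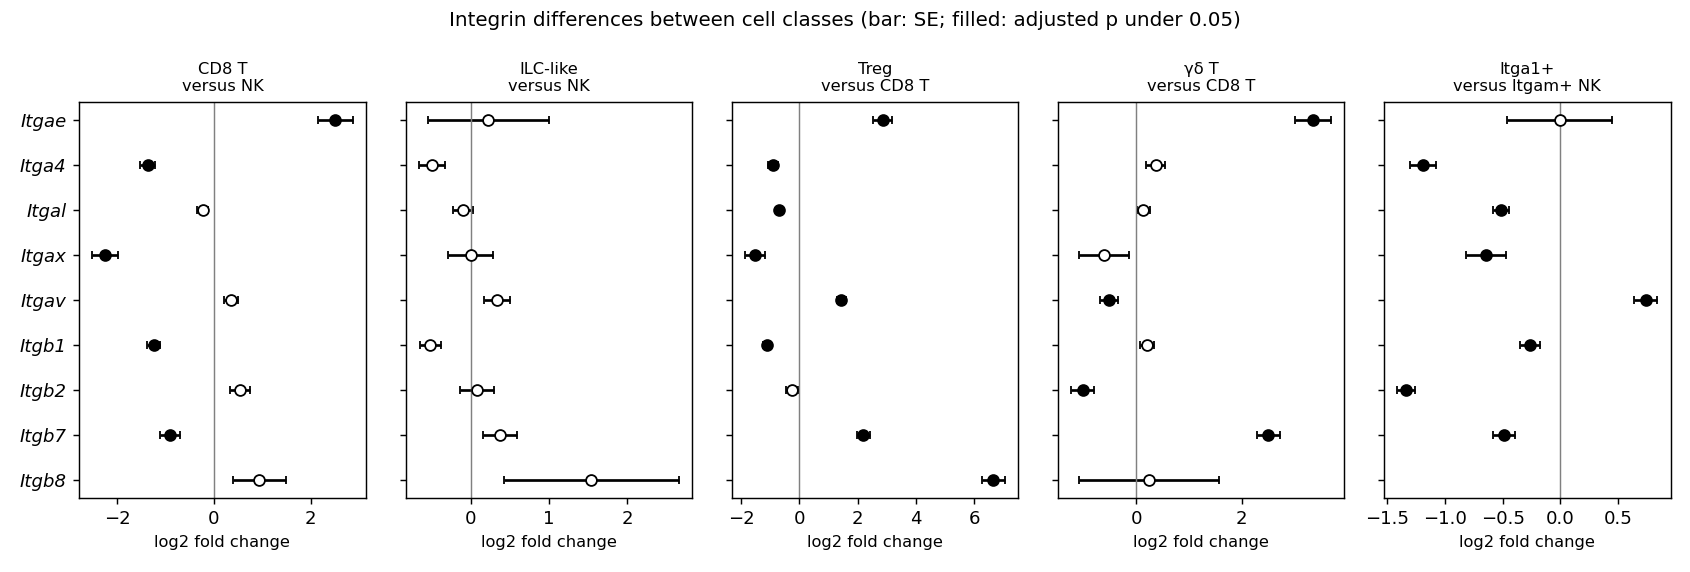
Differences of the 9 integrin genes in 5 comparisons of cell classes (horizontal axis, log2 fold change; bar, SE). Filled circles passed an adjusted p of 0.05. *Itgb8* in Tregs lies farthest from 0, at 6.67, and no circle is filled for ILC-like against NK cells.

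NK cells were divided by *Itgam*, a marker of mature circulating NK cells, and *Itga1*, a collagen receptor chain of tissue-resident cells. There were 793 cells with *Itgam* only, 2119 with *Itga1* only, 4805 with neither and 112 with both, the last left out of the contrast. *Itga1*-positive cells of Kaede-red were the deepest, with a median of 25054 UMIs against 6658 in *Itgam*-positive cells of that library. *Itgam*-positive cells were shallower than cells with neither gene in each library (medians of 5341, 6722 and 6658 against 5986.5, 7717 and 12174 UMIs). The subsets thus differ in depth as well, and the cause of this was not tested. Of 8 members tested, 6 were lower and 1 was higher in *Itga1*-positive cells, with 32% of all 10538 genes tested called. *Itgb8* did not pass the filter on low counts, with 0 to 8 UMIs per sum.

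Both chains of LFA-1 were lower in *Itga1*-positive cells. *Itgb2* had 289, 253 and 159 CPM in *Itgam*-positive cells and 107, 97.1 and 56.2 CPM in *Itga1*-positive cells, a 2.53-fold lower level (-1.34 ± 0.08, adjusted p = 9.11e-07). *Itgal* had 272, 235 and 196 CPM against 173, 160 and 127 CPM (-0.51 ± 0.07, adjusted p = 0.000241). The subsets did not overlap for either gene, and cells with neither gene were in between within each library.

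*Itga4* was lower too, at 121, 135 and 65.9 CPM against 302, 263 and 216 CPM (-1.19 ± 0.12, adjusted p = 1.92e-05), again without overlap and with 185, 188 and 97.6 CPM in cells with neither. *Itgb7* had 188, 206 and 119 CPM against 140, 127 and 79.8 CPM (-0.49 ± 0.09, adjusted p = 0.00184). *Itgax* had 70.0, 57.9 and 108 CPM against 47.2, 47.6 and 38.1 CPM (-0.64 ± 0.17, adjusted p = 0.0128). *Itgav* alone was higher, at 64.5, 81.3 and 66.7 CPM against 43.3, 47.4 and 47.7 CPM (0.74 ± 0.10, adjusted p = 0.000226), with no overlap. *Itgb1* showed the smallest called difference (502, 572 and 474 against 413, 484 and 311 CPM, -0.26 ± 0.08, adjusted p = 0.03), and *Itgae* did not pass (0.00 ± 0.46, adjusted p = 0.998), with 10 UMIs or fewer in 5 of its 6 sums.

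Some weaker calls of this comparison were lost when a single library was left out. The genes called among all tested also fell, from 3368 to 1959 and 1957 without Kaede-green 1 and 2. *Itgax* (adjusted p = 0.0578) and *Itgb1* (0.101) were lost without Kaede-green 1, and *Itgb1* (0.0919) and *Itgb7* (0.0576) without Kaede-green 2. The ranges over the alternatives were 7.43e-06 to 0.0743 for *Itgax*, 0.0116 to 0.569 for *Itgb1* and 6.73e-05 to 0.157 for *Itgb7*. Without the library block 3 members remained past the threshold, *Itga4*, *Itgav* and *Itgb2*. The summed myeloid markers were 40.1, 456 and 318 CPM in *Itgam*-positive cells and 201, 169 and 9.31 CPM in *Itga1*-positive cells, and their part in the *Itgax* difference was not tested.

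**Figure D3:**
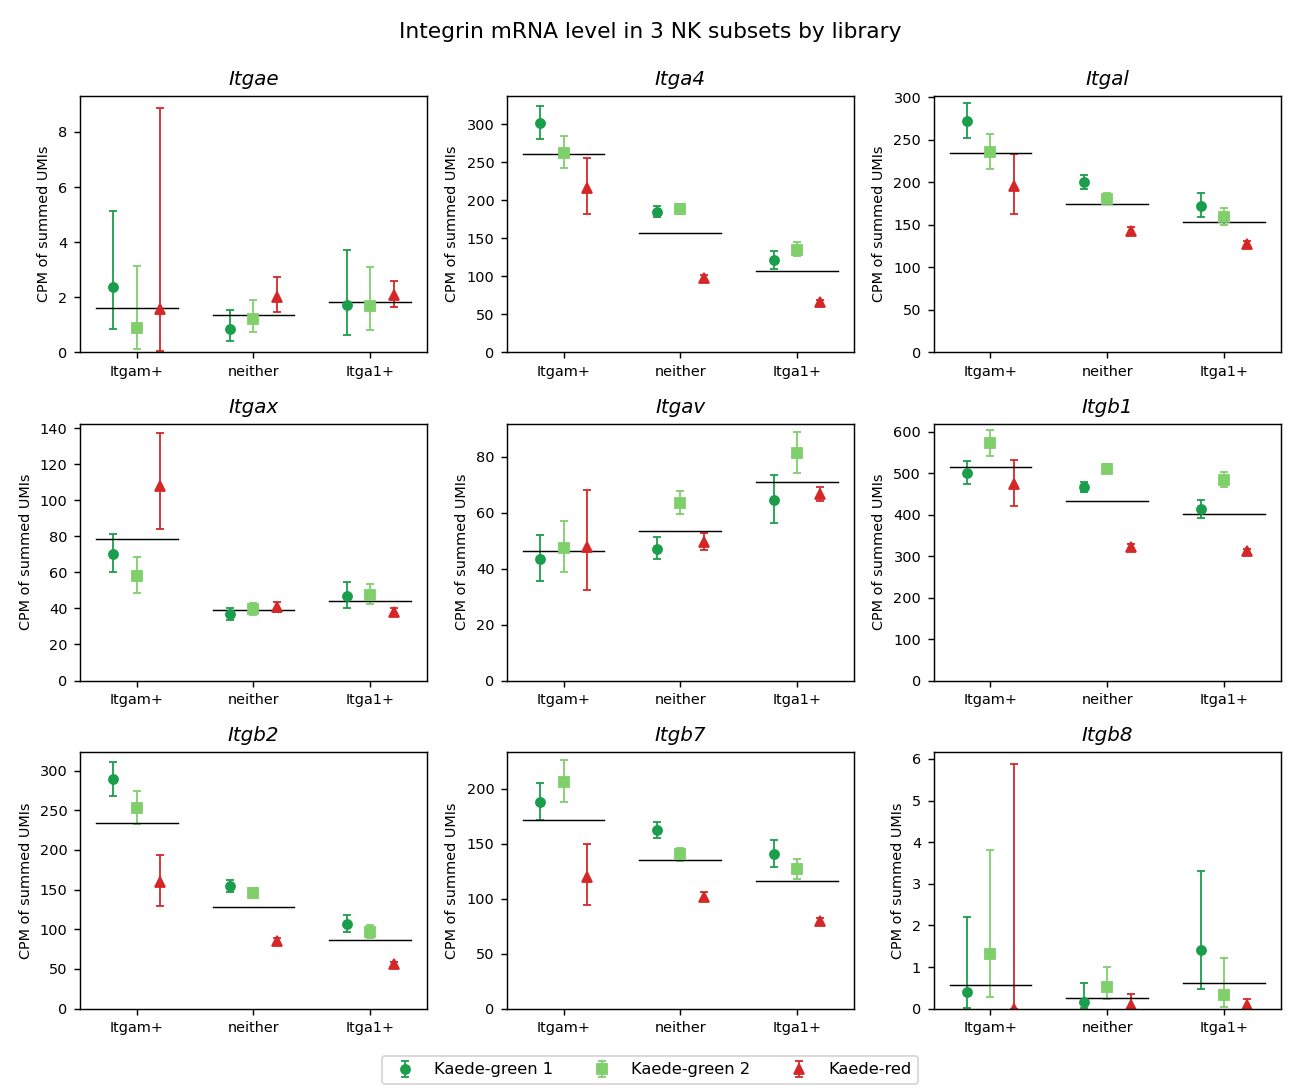
Level of the 9 integrin genes (vertical axis, CPM of summed UMIs, from 0) in NK cells with *Itgam* only, with neither gene and with *Itga1* only. Each point is 1 library with its exact 95% counting interval and the black line is the mean of 3 libraries. *Itgb2* and *Itga4* step down from left to right in each library, whereas *Itgav* is highest on the right.

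Kaede color was examined last. With a single Kaede-red library there is no replicate of that color and no test, and color, library and depth cannot be told apart. A member is called different here if Kaede-red differed from both Kaede-green libraries in the same direction by more than these differed from each other, and if the exact 95% counting intervals of both ratios excluded 0 on the log2 scale. In NK cells 6 of 9 members were lower and 1 was higher in Kaede-red, with 52.3% of all genes tested meeting the same rule and a median of all genes of -0.16, to which the ratios below can be related. *Itga4* in NK cells had the lowest mean ratio (-1.23) among the members with over 20 UMIs in every sum, at -1.26 against Kaede-green 1 and -1.21 against Kaede-green 2, while these libraries differed by 0.05. *Itgb2* came next (mean -1.18, from -1.27 and -1.09), then *Itgb7* (-0.88 and -0.71), *Itgb1* (-0.55 and -0.69) and *Itgal* (-0.62 and -0.44). *Itgb8* was at 8, 13 and 6 UMIs and *Itgae*, the one higher member, at 23, 31 and 119 UMIs, too few in the Kaede-green sums to be read as expression. *Itgax* (-0.11 and -0.09) and *Itgav* (0.29 and -0.13) did not meet the rule.

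The NK subsets shared much of this. *Itga4*, *Itgb2* and *Itgb7* were lower in Kaede-red within *Itgam*-positive cells, within *Itga1*-positive cells and within cells with neither, so the lower level in all NK cells was also present within each subset. For *Itga4* the mean log2 ratio was -0.38, -0.96 and -0.94 in these 3 subsets, for *Itgb2* it was -0.76, -0.86 and -0.82, and for *Itgb7* -0.71, -0.74 and -0.57. The counts of members were 3 lower and 1 higher in *Itgam*-positive cells (background 7.38%), 6 lower in *Itga1*-positive cells (25.2%) and 5 lower in cells with neither (41.6%). The one higher member was *Itgax*, at 108 CPM in Kaede-red against 70.0 and 57.9 CPM, from 75 cells and 68 UMIs. Its log2 ratios there were 0.63 and 0.91. In *Itga1*-positive cells *Itgax* was instead among the 6 lower members, at -0.31 and -0.32. In cells with neither it did not meet the rule (0.15 and 0.04).

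In CD8 T cells 5 members were lower and none was higher in Kaede-red, with 34.1% of all genes meeting the rule. *Itgae* (-1.41 and -1.23), *Itga4* (-1.30 and -1.27), *Itgb7* (-1.37 and -1.07) and *Itgax* (-1.06 and -1.43) were lower by more than 1, and *Itgb1* by less (-0.70 and -0.88). Every chain of αEβ7, α4β7 and VLA-4 was thus lower in KR+ than in KG+ CD8 T cells. The LFA-1 chains did not share this. *Itgal* had ratios of 0.12 and -0.08 and *Itgb2* of 0.35 and 0.12, neither meeting the rule.

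In Tregs *Itgae* had the opposite sign to that in CD8 T cells. Of the 9 members 3 were higher and 2 lower in Kaede-red, with a background of 14%. *Itgb8* (0.61 and 0.45), *Itgae* (0.42 and 0.59) and *Itgav* (0.26 and 0.19) were higher, and *Itga4* (-0.38 and -0.56) and *Itgb1* (-0.48 and -0.70) were lower. *Itgb7* had ratios of 0.01 and 0.32 and did not meet the rule. In thinned Tregs *Itgae* was detected in 11.6%, 12.3% and 19.1% of cells, the Kaede-red share lying above both others with an exact 95% interval of 16.2 to 22.3%. Median depth was lower in Kaede-red Tregs (6865 UMIs) than in Kaede-green ones (8884 and 9864 UMIs), the reverse of the other large classes.

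ILC-like and γδ T cells are small classes with wide counting intervals. In ILC-like cells 2 members, *Itga4* (-1.14 and -0.95) and *Itgb2* (-0.50 and -0.38), were lower, with a background of 7.62%. In γδ T cells 1 member, *Itgal* (-0.38 and -0.29), was lower, with a background of 4.22%. *Itgae* in γδ T cells had ratios of 0.28 and 0.24 with intervals that included 0. *Itga4* was thus lower in Kaede-red in NK, ILC-like, CD8 T and Treg cells, and in γδ T cells its ratios of -0.70 and -0.12 did not meet the rule.

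**Figure D4:**
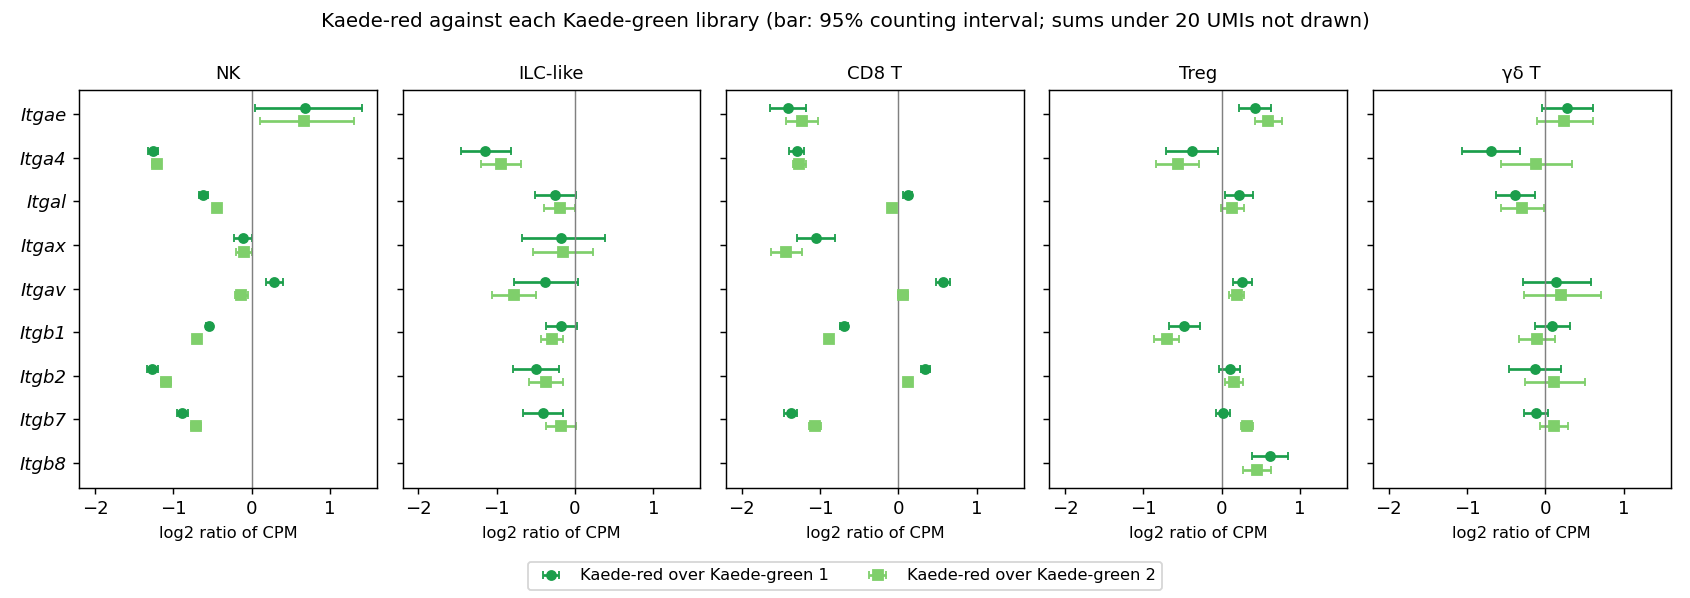
Log2 ratio of CPM in Kaede-red to each Kaede-green library (horizontal axis) for the 9 integrin genes in 5 cell classes. Bars are exact 95% counting intervals, and genes with under 20 UMIs in a library are not drawn. The points of *Itga4* lie left of 0 in every class, and *Itgae* lies left of 0 in CD8 T cells and right of it in Tregs.

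Of 17 other integrin genes in a list, 9 passed the filter between classes and 5 between NK subsets. The shares of all genes called in the 5 comparisons (25.8%, 2.7%, 25.8%, 29.8% and 32%) stand beside the counts of this list and of the ligand and adaptor lists, and no count is read as particular to a list. Of the 9 tested between classes, 4 were lower and 1 higher in CD8 T than in NK cells, among them *Itga5* (-3.04 ± 0.42, adjusted p = 0.000101), the fibronectin receptor chain, and *Itgb3* (-1.57 ± 0.16, adjusted p = 6.60e-06), a partner of *Itgav*. γδ T cells were higher than CD8 T cells in 5, led by *Itgb5* (10.2, 9.40 and 11 CPM against at most 0.324, log2 difference 5.79 ± 0.51, adjusted p = 2.29e-06), another partner of *Itgav*, and *Itgb4* (4.20 ± 0.46, adjusted p = 3.91e-05), a chain of the laminin receptor, and lower in 1. The γδ T sums held 1269846, 957873 and 2007730 UMIs, so the *Itgb5* levels rest on few molecules. Tregs were higher than CD8 T cells in 3 and lower in 1, and ILC-like cells were lower than NK cells in 2, *Itgam* and *Itga2*. In *Itga1*-positive NK cells 5 of the list could be tested, and *Itgb3* was higher (1.40 ± 0.15, adjusted p = 3.26e-05) and *Itga2* (-1.87 ± 0.12, adjusted p = 1.88e-06) and *Itga6* lower. The median log2 difference over the list's tested genes was -0.87, -0.11, 0.39, 1.09 and -0.33 in the 5 comparisons, while that of all genes lay between -0.03 and 0.01. For the 9 members themselves the medians were -0.23, 0.08, -0.24, 0.21 and -0.50 in the order CD8 T against NK, ILC-like against NK, Treg against CD8 T, γδ T against CD8 T and *Itga1*-positive against *Itgam*-positive NK. The last of these medians covers the 8 members tested there.

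Among 8 genes for integrin ligands and TGF-β presentation, *Lrrc32* was 5.76 ± 0.34 higher on the log2 scale in Tregs than in CD8 T cells (adjusted p = 7.17e-08), with 2 of 7 tested genes higher and 2 lower. *Icam1*, the LFA-1 ligand, was lower in *Itga1*-positive than in *Itgam*-positive NK cells (-1.36 ± 0.09, adjusted p = 1.88e-06), as was *Icam2*, whereas *Cdh1*, the E-cadherin gene, was higher (2.77 ± 0.44, adjusted p = 0.000573). The counts were 0 higher and 2 lower of 7 in CD8 T against NK cells, 0 of 7 in ILC-like against NK cells and 3 higher of 7 in γδ T against CD8 T cells. The list's median log2 difference was 0.04, -0.21, 0.22, -0.29 and -0.59 in the order just given. *Tgfb1*, the cytokine that αvβ8 activates, was lower in CD8 T than in NK cells (-1.14 ± 0.12, adjusted p = 6.94e-06) and in Tregs than in CD8 T cells (-0.48 ± 0.12, adjusted p = 0.00746).

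Of 16 genes for integrin activation and adaptors, 4 were higher and 2 lower in CD8 T than in NK cells, with *Pxn* (paxillin) lowest (-1.14 ± 0.13, adjusted p = 1.22e-05). In ILC-like cells 1 was lower than in NK cells (*Fyb*, -0.43 ± 0.09, adjusted p = 0.0226). Tregs had 6 higher and 2 lower than CD8 T cells, and γδ T cells 4 higher and 5 lower. The list's median log2 difference stayed between -0.22 and 0.07 over the 5 comparisons. In *Itga1*-positive NK cells 6 were lower than in *Itgam*-positive cells and none was higher, where 32% of all genes were called. These were led by *Rasgrp2* (-2.04 ± 0.23, adjusted p = 5.36e-05), which switches on the GTPase Rap1, *Cyth1* (-0.80 ± 0.10, adjusted p = 0.000148) and *Rap1b* itself (-0.54 ± 0.08, adjusted p = 0.000269). *Rasgrp2* had 42.1, 41.8 and 11.1 CPM in *Itgam*-positive and 5.40, 9.56 and 3.80 CPM in *Itga1*-positive NK cells.

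The genes whose log2 CPM most resembled each member over the 15 class sums were found among 11523 genes. These sums share 3 libraries and their depth, so the correlations are descriptions. *Itgb8* was closest to *Nckap5* (Pearson r = 0.98), *Lrrc32* (0.98) and *Tshz2* (0.98), *Itgav* to *Sept7* (0.98), *Ermn* (0.96) and *Pparg* (0.96), and *Itgae* to *Plxnd1* (0.97), *Mier1* (0.96) and *Ube2l6* (0.96). *Itgb7* was closest to *Zfp36l1* (0.97), *Osbpl9* (0.95) and *St8sia4* (0.95). For *Itga4* these were *Cpne3*, *Sh2b3* and *Pik3r1* (0.94, 0.94 and 0.93), for *Itgal* *B4galt1*, *Mosmo* and *Fcho2* (0.95, 0.94 and 0.93), and for *Itgax* *Samd3*, *Lilrb4a* and *Cemip2* (0.96, 0.95 and 0.95). *Itgb1* was nearest to *Zfp974*, *Bcl2l11* and *Nrarp* (0.97, 0.95 and 0.95), and *Itgb2* had the weakest match, with *Ahcyl1*, *Cblb* and *Fam133b* (0.89, 0.86 and 0.85).

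Transcripts of paired chains were also read in the same cells. Among thinned CD8 T cells, *Itgb1* was detected in 50.2%, 48.0% and 40.1% of cells with *Itga4* and in 31.8%, 32.5% and 21.4% of cells without. In NK cells the same shares were closer, at 61.4%, 67.8% and 51.5% against 56.3%, 62.4% and 47.3%, though higher with *Itga4* in each library. For *Itgal* and *Itgb2*, the LFA-1 pair, CD8 T cells had 28.2%, 32.3% and 33.8% against 25.7%, 29.0% and 29.1%. NK cells had 32.6%, 25.9% and 14.3% against 27.6%, 26.2% and 16.2%, with no common direction in this draw. Each class and NK subset was thinned in its own random draw. NK cells with neither *Itgam* nor *Itga1* had 28.5%, 28.0% and 18.6% against 25.0%, 23.5% and 15.2%. *Itga1*-positive cells had 24.7%, 27.0% and 12.6% against 19.2%, 21.1% and 10.5%. *Itgam*-positive cells had 43.1%, 47.4% and 25% against 39.6%, 36.1% and 30.9%. The draw for all NK cells thus does not settle the direction. Detection in a single cell depends on few molecules, and these shares describe transcripts, not assembled receptors.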

How the data were processed

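The authors deposited raw UMI counts of 10x 3′ libraries, as cell-filtered Cell Ranger matrices without normalization. Their notes name Cell Ranger 6.1.2, the table headers 6.0.1, and mm10 (GRCm38). The counts were used as deposited. Barcodes passed with 1000 to 6000 detected genes and a mitochondrial share below 7.5%, and doublets scored per library with Scrublet in Scanpy 1.11.5 (497, 507 and 136 cells) were removed. The 3 libraries together hold fewer barcodes than the TILs the study counts, and no others were analysed here.

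UMIs were summed per class and library. Sums of 5 classes (15 sums) or 3 NK subsets (9 sums) were fitted with edgeR 4.0.16 (filterByExpr, TMM, quasi-likelihood test, library as block). SE is the log2 difference over the root of its F value. Alternatives were DESeq2 1.42.0, no filter, no block, only the compared classes, doublets or all barcodes kept, cells of more than 1 class kept, stricter limits, and each library left out. For color, each cell was also weighted equally, and the rule then had no counting intervals. Color ratios added 0.5 to each count. Shares of cells were read after thinning to 2000 UMIs, in a single random draw per class. Intervals are exact, Poisson for levels and binomial (Clopper-Pearson) for shares and color ratios, and cover counting error only. The script was tested on simulated data.

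Members, gene lists and motifs were chosen with earlier results of these data known. Genes named were all members, in each comparison at most 4 called genes of each list, those with the smallest p, and the 3 most similar genes per member. Marker lists were those of NK, ILC-like, T, CD8 T, Treg, γδ T, B, myeloid and tumor epithelial cells. NK markers summed to 10328 to 19206 CPM in NK cells, 5979 to 6647 in ILC-like cells and 3770 to 5084 in CD8 T cells. That list includes *Eomes*, a limit gene between NK and ILC-like cells. In CD8 T cells T markers summed to 4640 to 5120 CPM and CD8 T markers, which include the limit genes *Cd8a* and *Cd8b1*, to 4195 to 5067. B markers, which include *Cd79a* and *Cd79b* that define these cells, summed to 2060 to 4780 CPM. Tumor epithelial markers were at most 13.6 CPM in the 5 classes. Gene positions are from GENCODE M21 (GRCm38).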

Additional observations from a re-analysis of the deposited data

Results flagged for a closer look

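The ratio of Kaede-red to Kaede-green had opposite signs between classes for 2 members, against both Kaede-green libraries in each class, and the difference between classes was not tested since there is 1 Kaede-red library. For *Itgae* the mean log2 ratio was -1.32 in CD8 T cells and 0.67 in NK cells, where the gene had 23, 31 and 119 UMIs. For *Itgae* it was also 0.51 in Tregs against the -1.32 of CD8 T cells, with 304, 543 and 615 UMIs in Tregs and 300, 455 and 323 in CD8 T cells. For *Itgb8* it was -2.18 in NK cells, from 8, 13 and 6 UMIs, and 0.53 in Tregs, from 226, 509 and 523 UMIs. The Kaede-green NK counts of both genes are too few to be read as expression. Of these contrasts only *Itgae* in CD8 T cells against Tregs rests on larger counts. Between NK subsets *Itgax* also had opposite signs, with a mean of 0.77 in *Itgam*-positive and -0.32 in *Itga1*-positive cells.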

How the results depend on the processing

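Of the alternatives' log2 differences of single members, 424 kept direction and side of the threshold, 19 newly passed, 21 no longer passed and 15 turned sign. For ILC-like against NK cells, where no member passed, 1 passed with every barcode, 1 with DESeq2, 2 without the filter, 2 with only these classes fitted, and 0 to 3 with a library left out. Of all genes tested, 362 of 11775 were called there with every barcode and 462 of 11542 with DESeq2. For γδ T against CD8 T cells 2 to 4 passed with a library left out, and for *Itga1*-positive against *Itgam*-positive NK cells 3 without the library block. No value that turned sign was called. *Itgax* in ILC-like against NK cells was -0.049 with doublets, -0.042 with every barcode, -0.0074 with cells of more than 1 class, -0.060 without the filter, -0.013 with only these classes, and -0.017 to 0.025 with a library left out, and *Itgb2* there ranged from -0.095 to 0.21 with a library left out. In γδ T against CD8 T cells the latter ranges were -0.055 to 0.36 for *Itgb1* and -0.47 to 0.63 for *Itgb8*, which was -0.99 with stricter limits. *Itgae* in *Itga1*-positive against *Itgam*-positive NK cells was 0.12 with DESeq2, 0.048 without the filter, 0.33 without the block and -0.41 to 0.75 with a library left out. Members meeting the color rule in ILC-like cells numbered 1 with stricter limits, and in γδ T cells 0 with cells of more than 1 class kept. With cells weighted equally, 4 in ILC-like and 2 in γδ T cells met a laxer rule without counting intervals. No share over all genes was taken for that rule. The causes were not tested. Counts over all genes changed by over 1.5 times in places. CD8 T against NK cells gave 2976, and 1969 without the block, 1694 and 1354 without Kaede-green 1 and 2 and 4599 without Kaede-red. ILC-like against NK cells gave 312, and 168 without the block, 532 without the filter, 593 with only these classes, and 79, 87 and 504 without the libraries in that order. Treg against CD8 T cells gave 2978, and 1739 and 1440 without either Kaede-green library. γδ T against CD8 T cells gave 3440, and 2150 with cells of more than 1 class kept, and 1937 and 1679 without either Kaede-green library. *Itga1*-positive against *Itgam*-positive NK cells gave 3368, and 372 without the block, 1658 with stricter limits, and 1959 and 1957 without either Kaede-green library. No paired analysis of Kaede color was possible because Kaede-red has 1 library, whose label gives no replicate number. Depth limits the small classes, above all ILC-like cells, where a gene needs 3.64 CPM in Kaede-green 1 to give 3 UMIs.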
